A study of Homo sapiens with 6 samples.

Results

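Kinesins are motor proteins that convert ATP hydrolysis into force along microtubules, and the kinesin genes were followed here in A549, a cell line established from a human lung adenocarcinoma. The members were the 42 genes whose single annotated symbol was KIF followed by a number and at most 1 letter from A to C, or KIFC1, KIFC2 or KIFC3, of 22411 genes named in the array annotation. They were represented by 46 transcript clusters, the probe sets that the array assigns to 1 transcribed locus, and the brightest cluster stood for each gene. Kinesin genes were sorted by known role into 14 mitotic kinesins, 15 cargo kinesins and 13 others, the last acting in cilia, signalling or microtubule turnover. Cells had been transfected on 2 occasions, 24 h apart, with siRNA at a final 40 nM. The groups were 3 arrays of cells that received pooled siRNAs to CONCR (gene symbol DDX11-AS1), a long noncoding RNA studied for its part in sister chromatid cohesion, and 3 arrays of cells that received a control siRNA. All 6 arrays came from the same cell line, and both groups carried siRNA and transfection reagent, so no untransfected cells were compared.

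In dividing cells, kinesins slide spindle microtubules apart, carry chromosomes to the spindle equator, trim microtubule ends and build the midbody at which daughter cells separate. Between divisions, other kinesins carry vesicles, mitochondria and components of the cilium, most of them towards the microtubule plus end. Genes of mitotic kinesins are known to peak in G2 and mitosis, under a promoter element called the cell cycle genes homology region (CHR), which the DREAM and MuvB complexes bind, while cargo kinesins are not known as a group to follow the cell cycle.

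Values were RMA signals on a log2 scale, and differences are CONCR siRNA minus control siRNA. A transcript cluster was tested when its signal exceeded 4 on at least 3 of the 6 arrays. Of 42 kinesin genes 39 were tested, and 38 of these exceeded 4 on all 6 arrays. Over all 32540 tested clusters the median difference was 0.01, and arrays of 1 group correlated at 0.989 to 0.993 and arrays of different groups at 0.987 to 0.991. The target, DDX11-AS1, had signals of 4.23, 4.49 and 4.64 after CONCR siRNA against 4.71, 4.71 and 4.64 after control siRNA, a difference of -0.23 (SE 0.10) that missed the threshold (limma adjusted p = 0.42), so the knockdown was not shown on these arrays. DDX11, the neighbouring helicase gene, was at -0.02 (limma adjusted p = 0.94). The epithelial keratins KRT8 and KRT18 gave signals of 11.19 to 11.34 and 11.51 to 11.64, while EPCAM stayed at 2.71 to 2.84, below the filter. The series describes the 3 knockdowns as independent but names no separate cultures, so p-values here reflect sample-to-sample spread alone, part of which may be technical.

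KIF14 and KIF3B were the kinesin genes with a limma adjusted p under 0.05, and both were lower after CONCR siRNA. KIF14, a mitotic motor of the midbody, fell by 0.63 on the log2 scale (SE 0.11, 1.54-fold lower), and KIF3B, a subunit of the kinesin-2 motor that carries cargo into cilia and along microtubules, fell by 0.76 (SE 0.08, 1.70-fold lower), n = 3 per group. None of the 39 tested kinesins rose by limma. The call was made for 2 of 39 kinesins, both lower, against 1.88% of all tested clusters called in either direction, 1.5% called lower and 0.384% called higher. An unadjusted p under 0.05 was found for 6 kinesins lower and 1 higher, against 7.43% lower and 5.31% higher among all tested clusters. Separation of all 3 arrays from all 3 controls was seen for 7 kinesins that were lower and 2 that were higher after CONCR siRNA, against 10.1% and 9% of all tested clusters. Members stand for named genes by their brightest cluster. Of 15497 tested genes taken in that way, 312 were called lower and 93 higher. At an unadjusted p under 0.05, 1370 of the 15497 were lower and 936 higher. Without overlap, 1979 were lower and 1809 higher, larger shares than over all tested clusters. The members were chosen with earlier results known, so the 7 of 39 lower without overlap are given as a description.

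**Figure D1:**
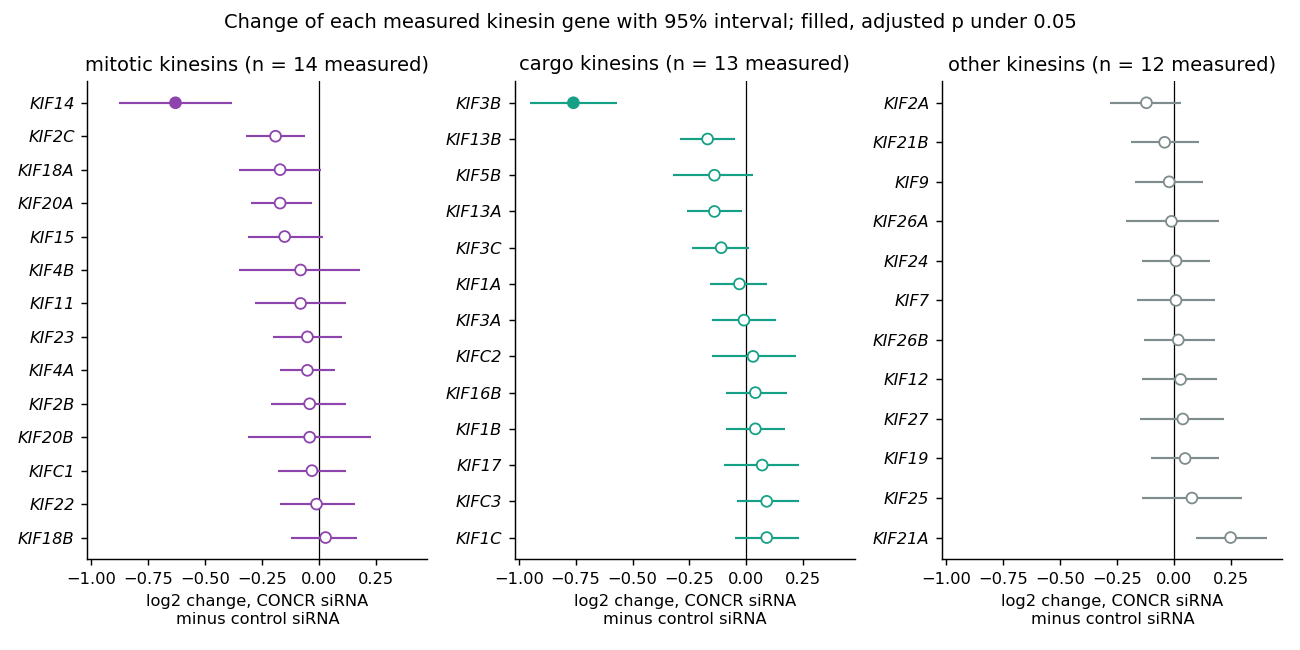
Log2 change (CONCR siRNA minus control siRNA) of each measured kinesin gene with its 95% confidence interval, for 14 mitotic, 13 cargo and 12 other kinesins. Filled points mark KIF14 (-0.63) and KIF3B (-0.76), the members past an adjusted p of 0.05, while 13 of 14 mitotic kinesins lie left of 0.

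Among the mitotic kinesins, KIF14 stood apart. It binds the microtubule bundler PRC1 and the kinase citron and is needed for the last step of cytokinesis. KIF14 had signals of 6.67, 6.45 and 6.59 after CONCR siRNA, against 6.98, 7.27 and 7.34 after control siRNA. Every CONCR siRNA array lay below every control array, and control replicate 1 was the lowest of its group. The means were 6.57 ± 0.11 after CONCR siRNA and 7.20 ± 0.19 after control siRNA (SD, n = 3), and the difference of -0.63 had a 95% confidence interval of -0.88 to -0.38 (limma adjusted p = 0.039). The call was lost without any 1 array except control replicate 1, with adjusted p of 0.10 to 0.16 in those 5 fits and differences of -0.56 to -0.67. It was also lost under median centring (0.059) and without the filter on dim clusters (0.096).

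**Figure D2:**
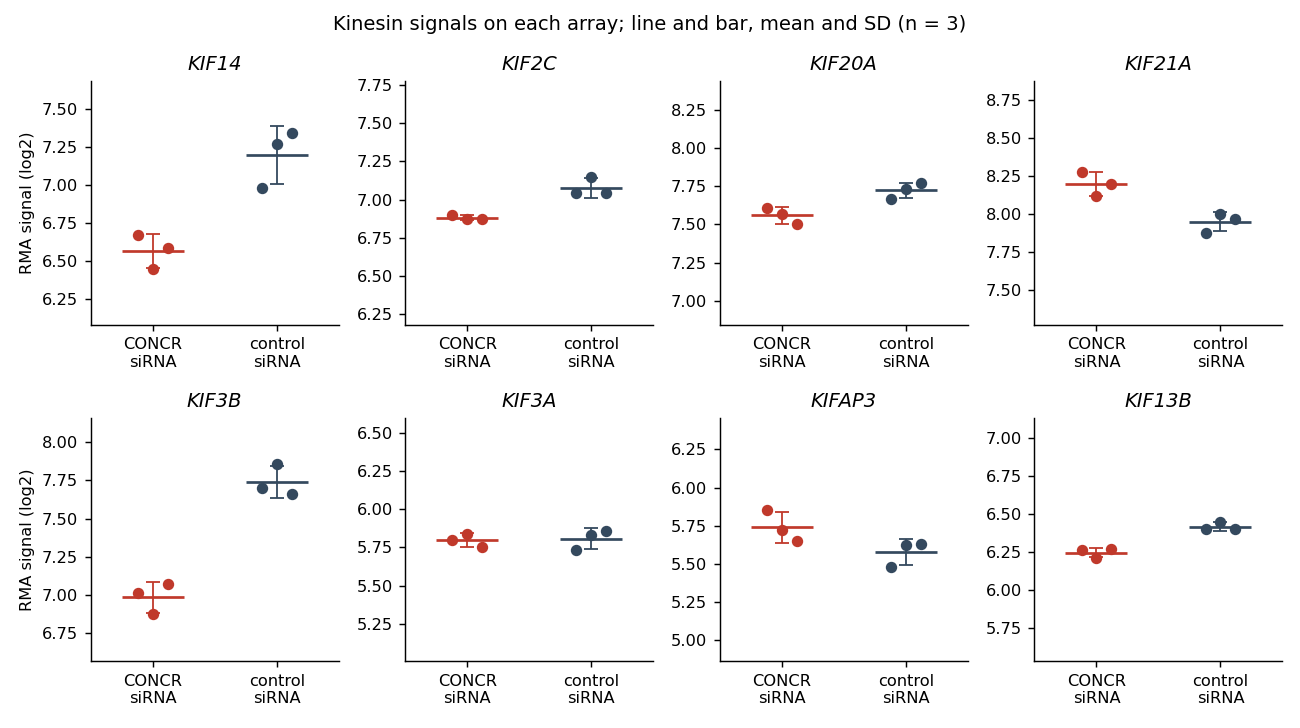
RMA signal (log2) of 8 genes on each array, CONCR siRNA left and control siRNA right, with the mean and SD of 3 arrays and a vertical range of the same size in every panel. KIF14 and KIF3B show the widest gaps, KIF21A is higher after CONCR siRNA (8.12 to 8.28 against 7.88 to 8.0), and KIF3A overlaps between the groups.

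KIF2C and KIF20A were lower without overlap but did not pass the test. KIF2C, also called MCAK, takes microtubules apart at centromeres so that wrong attachments can be released. Its signals were 6.90, 6.87 and 6.87 after CONCR siRNA, against 7.04, 7.15 and 7.04 after control siRNA, a difference of -0.19 (SE 0.05, limma adjusted p = 0.18). KIF20A, or MKLP2, brings the chromosomal passenger complex to the central spindle. It stood at 7.61, 7.57 and 7.50 after CONCR siRNA and at 7.67, 7.73 and 7.77 after control siRNA, a difference of -0.17 (SE 0.06, limma adjusted p = 0.27).

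The motors that set up the bipolar spindle showed smaller differences. KIF11, or Eg5, slides antiparallel microtubules apart and had 8.53, 8.38 and 8.46 after CONCR siRNA against 8.39, 8.54 and 8.68 after control siRNA. The groups of KIF11 overlapped, and its difference of -0.08 had an interval of -0.28 to 0.12. KIF15, which can stand in for KIF11, was at -0.15 (SE 0.07), and KIFC1, a minus-end motor that gathers spindle poles, was at -0.03 (SE 0.06). KIFC1 had 4 clusters, 3 of them on alternate haplotypes of chromosome 6. Of the haplotype clusters, 1 gave the same values as the cluster used, another differed from it by at most 0.03 on any array, and the last was at 0.34 (limma adjusted p = 0.51), so the sign of KIFC1 depends on the cluster.

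None of the chromosome and microtubule-end motors was called by limma, and of these only KIF2C, above, had an unadjusted p under 0.05. KIF18A, which damps chromosome oscillation at the metaphase plate, was at -0.17 (SE 0.08), with 7.75, 7.58 and 7.72 after CONCR siRNA against 7.74, 7.89 and 7.92 after control siRNA. KIF18B, which acts on astral microtubules, was at 0.03 (SE 0.06) and was the 1 mitotic member with a positive sign. The chromokinesins KIF4A and KIF22 were at -0.05 (SE 0.05) and -0.01 (SE 0.07). KIF4B is an intronless copy of KIF4A, so its difference of -0.08 (SE 0.11) cannot be assigned to it alone. KIF2B, a relative of KIF2C, exceeded the filter on just 3 arrays, with signals of 3.89 to 4.06 after CONCR siRNA and 3.92 to 4.06 after control siRNA.

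The remaining cytokinesis motors were not called. KIF23, or MKLP1, is the motor of centralspindlin and had 8.72, 8.61 and 8.61 after CONCR siRNA against 8.62, 8.71 and 8.76 after control siRNA, a difference of -0.05 (95% confidence interval -0.20 to 0.10). KIF20B, a relative of KIF20A that acts in abscission, was at -0.04 (95% confidence interval -0.31 to 0.23). Both intervals lie above the KIF14 value of -0.63. The difference between KIF14 and these genes was not itself tested.

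As a group, the mitotic kinesins had a negative sign in 13 of 14 genes with a median of -0.07, against a negative sign in 47.0% of all tested clusters and a median of 0.01. Several of these signs were not stable. Positive values were found for KIF22 under quantile normalization (0.01) and for KIFC1 as the mean of its clusters (0.06). KIF20B was at 0.05 without CONCR siRNA replicate 2, and KIF4B at 0.04 without control siRNA replicate 1. Only KIF14 passed the test, and intervals of the other 13 reached from -0.35 for KIF4B to 0.23 for KIF20B. The median over mitotic members of each gene's deviation from its own mean over the 6 arrays was -0.01, -0.08 and -0.05 after CONCR siRNA, against 0.04, 0.07 and 0.08 after control siRNA. These medians did not overlap between the groups, and replicate 1 of each group lay nearest to the other group. Separation was not particular to this list, since the medians of cargo kinesins and of proliferation markers did not overlap either. In bulk RNA, fewer cells in mitosis and less mitotic RNA per cell cannot be told apart. Beside these values, 11 tested proliferation markers had a median of -0.05 and none was called and their part in the mitotic values was not tested.

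**Figure D3:**
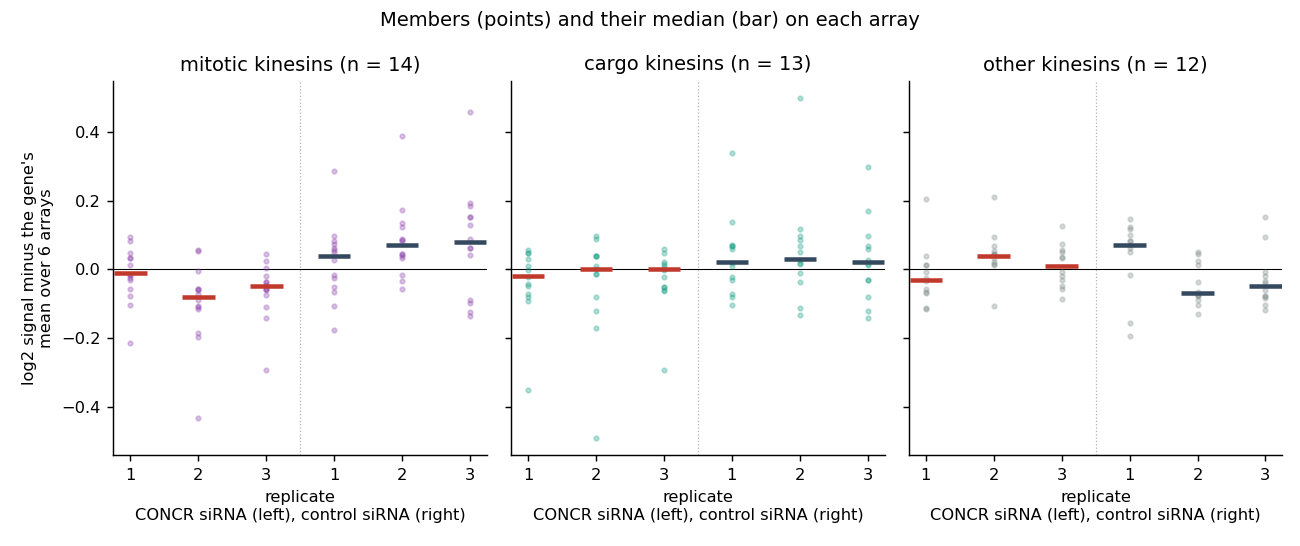
Deviation of each member's log2 signal from its own mean over 6 arrays (points) and the median over members (bars) on each array, CONCR siRNA left and control siRNA right. Mitotic medians run from -0.08 to -0.01 after CONCR siRNA and from 0.04 to 0.08 after control siRNA. Cargo medians run from -0.02 to 0 and from 0.02 to 0.03. Mitotic and cargo medians each separate between the groups, and medians of the other kinesins overlap.

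Promoter sequence was a feature that the choice of members did not use. It is shown because a cell cycle motif was common in mitotic kinesin promoters, in KIF14 and in uncalled genes alike. RefSeq promoters of build GRCh38.p14, from 250 bases before to 50 after each annotated gene start, were found for 34 of the 42 genes (not KIF5A, KIF13B, KIF19, KIF21B, KIF26B, KIF27, KIFC2 or KIFC3). They were searched on both strands for the CHR, spelled TTTGAA or TTTAAA, and for the CCAAT box that NF-Y binds, spelled CCAAT, and no CHR match overlapped a CCAAT match. Windows of 180 bases, 150 before and 30 after the start, are given for the mitotic genes KIF14, KIF2C, KIF20A and KIF11 and for the cargo gene KIF3B, 5′ to 3′ along the gene, with the matches to either motif in capitals. On the minus strand the motifs read TTCAAA and ATTGG.
KIF14, chr1:200620722-200620901, minus strand: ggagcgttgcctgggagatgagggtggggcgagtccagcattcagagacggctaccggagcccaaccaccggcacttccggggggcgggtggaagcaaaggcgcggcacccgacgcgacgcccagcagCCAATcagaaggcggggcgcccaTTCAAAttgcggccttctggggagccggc
KIF2C, chr1:44739687-44739866, plus strand: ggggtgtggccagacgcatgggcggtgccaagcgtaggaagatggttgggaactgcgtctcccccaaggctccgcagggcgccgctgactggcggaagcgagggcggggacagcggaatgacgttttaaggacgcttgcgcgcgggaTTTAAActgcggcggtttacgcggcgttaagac
KIF20A, chr5:138178962-138179141, plus strand: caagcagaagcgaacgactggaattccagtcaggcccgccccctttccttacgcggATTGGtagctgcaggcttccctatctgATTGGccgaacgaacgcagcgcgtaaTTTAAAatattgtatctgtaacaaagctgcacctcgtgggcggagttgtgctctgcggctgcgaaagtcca
KIF11, chr10:92592980-92593159, plus strand: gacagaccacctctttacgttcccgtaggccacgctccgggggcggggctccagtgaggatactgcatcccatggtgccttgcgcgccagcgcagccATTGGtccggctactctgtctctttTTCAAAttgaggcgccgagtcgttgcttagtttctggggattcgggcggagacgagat
KIF3B, chr20:32277501-32277680, plus strand: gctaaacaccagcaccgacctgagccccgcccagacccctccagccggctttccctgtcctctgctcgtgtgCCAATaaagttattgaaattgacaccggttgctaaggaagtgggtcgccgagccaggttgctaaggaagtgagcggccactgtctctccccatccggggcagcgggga

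A CHR match was present in 12 of 14 mitotic kinesin promoters, in 2 of 11 cargo kinesin promoters and in 0 of 9 others with a promoter, against 27.9% of all 27305 genes and 24.7% of 15843 protein-coding genes. KIF2B and KIF22 were the mitotic members with no CHR match in this window. All 12 had a CHR match between positions -55 and 36 from the start, whereas the cargo matches, in KIF5B and KIF16B, began at -140 and -241. A CCAAT box lay in 11 of 14 mitotic, 4 of 11 cargo and 3 of 9 other kinesin promoters, against 39.7% of all genes. Both motifs were found in 10 mitotic kinesins and in 1 cargo kinesin, KIF5B, against 12.7% of all genes. In KIF14, KIF11, KIF4A, KIF4B and KIF20A the CHR began 23 to 26 bases after the nearest CCAAT box, and in KIF18A and KIF18B 35 and 34 bases after it. The spacing was 9 bases in KIF23, 50 in KIFC1, and 122 and 128 for the CHR matches of KIF20B. A further CHR match in KIF14 and another in KIF23 lay upstream of the CCAAT box, at -176 and -147 bases from it.

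Mitotic kinesins with a CHR match ran from -0.63 for KIF14 to 0.03 for KIF18B. Because 12 of 14 had a match, these genes cannot show whether the motif goes with the difference, which was not tested. In the printed windows KIF14 and KIF11 carry both motifs, with spacings of 23 and 25 bases. KIF14 has a further CHR match at -198, outside its window, so the promoters are not alike in their matches. KIF14 was at -0.63 and KIF11 at -0.08. KIF2C, with a CHR across the start and no CCAAT box, was at -0.19. KIF18B, with both motifs, was at 0.03, and KIF22, with a CCAAT box alone, at -0.01. KIF3B, the member with the largest fall, had a CCAAT box and no CHR match. A match is a description of the letters and does not show that a factor binds there.

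**Figure D4:**
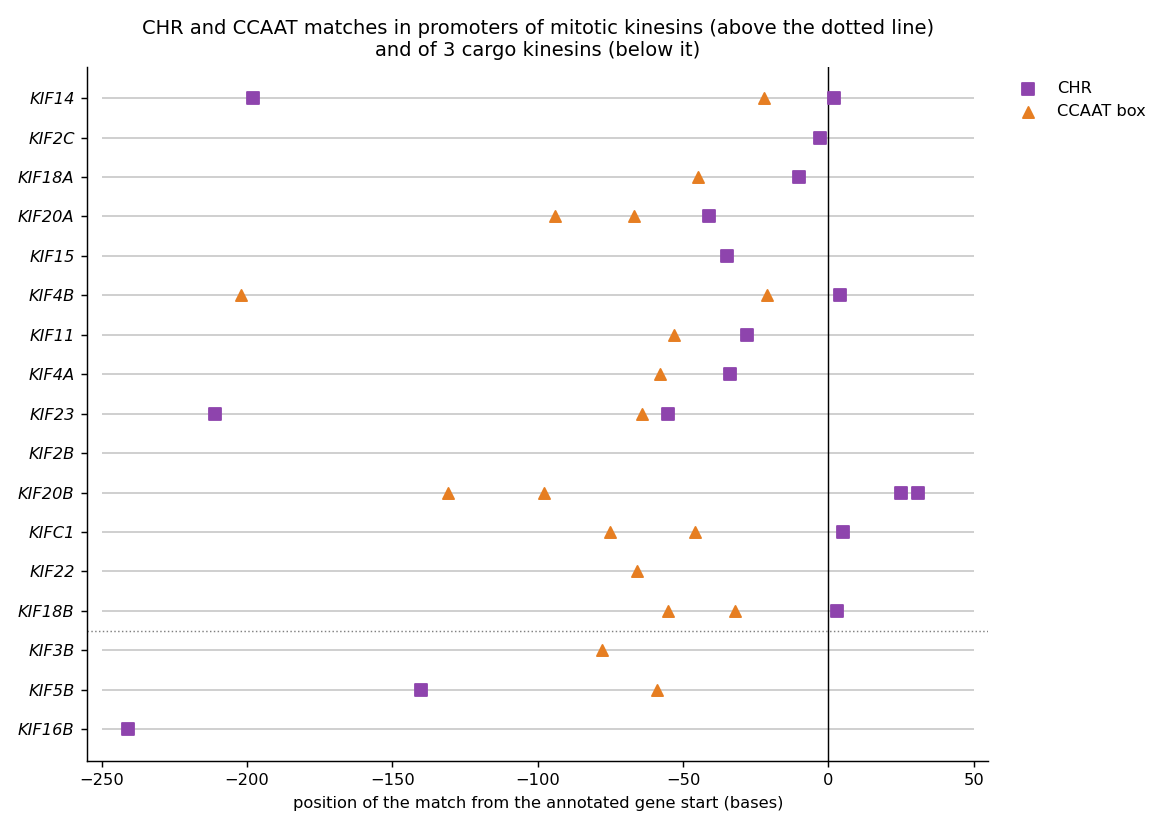
Positions of CHR (squares) and CCAAT (triangles) matches from 250 bases before to 50 after the annotated gene start in the 14 mitotic kinesin genes, ordered from the most negative to the most positive log2 change, and in 3 cargo kinesin genes below the dotted line. A CHR lies near the start in 12 mitotic genes, from KIF14 (-0.63) to KIF18B (0.03).

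The largest difference of any kinesin was in a cargo motor. KIF3B pairs with KIF3A and the adaptor KIFAP3 in heterotrimeric kinesin-2, which drives intraflagellar transport and also moves vesicles. Its signals were 7.01, 6.87 and 7.07 after CONCR siRNA, against 7.70, 7.86 and 7.66 after control siRNA. All 3 CONCR siRNA arrays lay below all 3 controls, and the gap between the groups was wider than the spread within either. The means were 6.98 ± 0.10 after CONCR siRNA and 7.74 ± 0.11 after control siRNA (SD, n = 3), and the difference of -0.76 had an interval of -0.95 to -0.57 (limma adjusted p = 0.0088). KIF3B was called without each of the 6 arrays in turn, at adjusted p of 0.029 to 0.047.

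The partners of KIF3B were not called. KIF3A had signals of 5.80, 5.84 and 5.75 after CONCR siRNA, against 5.73, 5.83 and 5.86 after control siRNA, a difference of -0.01 (95% confidence interval -0.15 to 0.13). KIFAP3 was at 5.85, 5.72 and 5.65 after CONCR siRNA and at 5.48, 5.62 and 5.63 after control siRNA, which is 0.16 (SE 0.07, limma adjusted p = 0.44) and above the control arrays without overlap. KIF3C, an alternative partner of KIF3A, was at 6.11, 6.19 and 6.14 after CONCR siRNA against 6.27, 6.29 and 6.22 after control siRNA, a difference of -0.11 (SE 0.05, limma adjusted p = 0.44). KIF17, the homodimeric kinesin-2, was at 0.07 (SE 0.07).

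Conventional kinesin was measured through KIF5B, the form found in most cell types. KIF5B had signals of 10.22, 10.07 and 10.22 after CONCR siRNA, against 10.22, 10.31 and 10.41 after control siRNA, a difference of -0.14 (SE 0.07, limma adjusted p = 0.49) with arrays that met at 10.22. The neuronal forms KIF5A and KIF5C did not pass the filter, at 3.93 to 4.06 and 3.73 to 3.74 after CONCR siRNA and at 3.93 to 3.96 and 3.76 to 3.86 after control siRNA, and were not tested. Of 6 neuron markers 3 passed the filter.

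The cargo motors of the kinesin-3 family, to which the mitotic KIF14 also belongs, differed in sign and none passed the test. KIF13A and KIF13B, which carry receptors and scaffold proteins to the cell surface, were lower without overlap. KIF13A had 7.30, 7.30 and 7.33 after CONCR siRNA against 7.40, 7.48 and 7.48 after control siRNA, a difference of -0.14 (SE 0.05, limma adjusted p = 0.31). KIF13B had 6.26, 6.21 and 6.27 after CONCR siRNA against 6.4, 6.45 and 6.4 after control siRNA, a difference of -0.17 (SE 0.05, limma adjusted p = 0.20). The other cargo motors of that family were nearer to 0. KIF1A and KIF1B, carriers of synaptic vesicle precursors in neurons, were at -0.03 and 0.04, KIF1C at 0.09 and KIF16B, a motor of early endosomes, at 0.04, and the groups overlapped for each of the 4. The C-terminal motors KIFC2 and KIFC3 were at 0.03 and 0.09, the second higher than control without overlap (6.76 to 6.78 against 6.58 to 6.73).

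Of all tested clusters 1.5% were called lower and 10.1% were lower without overlap. Of 15497 tested named genes 312 were called lower and 1979 were lower without overlap. Over the 13 tested cargo kinesins the median was -0.01, with 7 negative and 6 positive signs, 1 call and 4 members lower without overlap. The corresponding values of the mitotic kinesins were a median of -0.07, 13 negative and 1 positive signs, 1 call and 3 members lower without overlap. The contrast between the groups therefore lies in the shared sign of the mitotic members and not in the number of calls. Most of those members were uncalled, and the sign of several near 0 turned under other settings. Under a strict filter at a signal of 6, which left 9 cargo kinesins, the cargo median was -0.11 and the mitotic median stayed at -0.07. The largest single fall was in a cargo motor. This contrast is a description of lists and was not tested. The deviation medians of cargo kinesins were -0.02, 0 and 0 after CONCR siRNA and 0.02, 0.03 and 0.02 after control siRNA, without overlap, as for the mitotic list.

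Among the 13 other kinesins 12 were tested, none was called by limma, and 1 had an unadjusted p under 0.05. That gene was KIF21A, a kinesin-4 motor that restrains microtubule growth at the cell cortex. KIF21A had signals of 8.28, 8.12 and 8.20 after CONCR siRNA, against 7.88, 8.0 and 7.97 after control siRNA. All 3 CONCR siRNA arrays lay above the controls, and KIF21A stood 0.25 higher (SE 0.06, limma adjusted p = 0.14), with an interval of 0.10 to 0.41. Adjusted over 1 cluster per gene alone its p was 0.041, and under a strict filter 0.038. Its relative KIF21B was at -0.04 (SE 0.06), with 5.03 to 5.13 after CONCR siRNA and 5.05 to 5.21 after control siRNA.

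Kinesins of the cilium and of microtubule turnover gave small differences. KIF2A, which trims microtubules at spindle poles and in neurites, was the lowest of them at -0.12 (SE 0.07), with 7.74, 7.62 and 7.64 after CONCR siRNA against 7.71, 7.77 and 7.88 after control siRNA. KIF7, the Hedgehog regulator at the ciliary tip, was at 0.01 and its relative KIF27 at 0.04, while KIF24, which holds back cilium growth at the centriole, was at 0.01 and KIF19, a depolymerase of cilium length, at 0.05. KIF9, of motile cilia, was at -0.02, and KIF6 had signals of 2.86 to 2.93 after CONCR siRNA and 2.85 to 2.89 after control siRNA, below the filter. KIF12, KIF25, KIF26A and KIF26B lay between -0.01 and 0.08. The median of the 12 was 0.02, with 4 negative signs, and their intervals reached from -0.28 to 0.41.

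**Figure D5:**
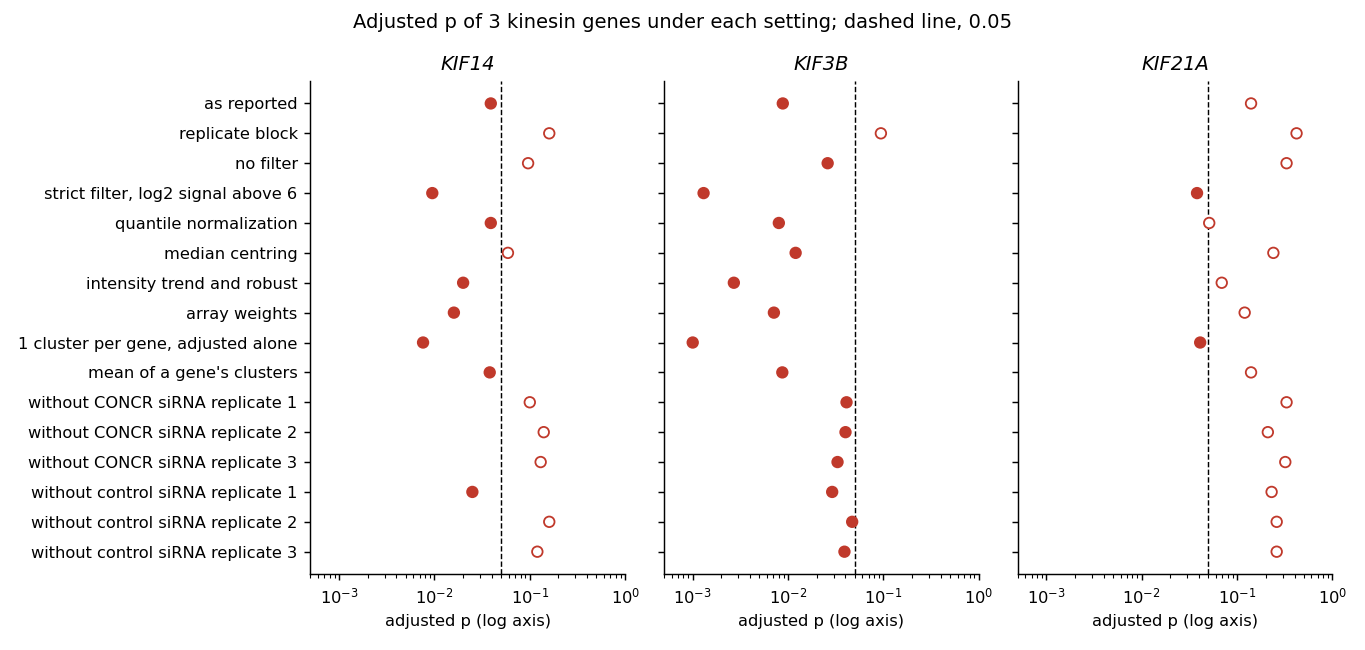
Adjusted p (log axis) of KIF14, KIF3B and KIF21A as reported and under 15 other settings, filled where it was under 0.05 (dashed line). KIF3B is past the line in all but the fit with the replicate number as a block, KIF14 in 1 of the 6 fits that leave out an array, and KIF21A with a strict filter and with 1 cluster per gene.

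Genes that work with kinesins were read from lists. The counts of these and the later lists stand beside 1.5% of all tested clusters called lower and 0.384% called higher. At an unadjusted p under 0.05 the shares were 7.43% lower and 5.31% higher. Of 24 light chain and cargo adaptor genes 20 were tested. FEZ2, a relative of the kinesin-1 adaptor FEZ1, rose by 0.37 (SE 0.06, limma adjusted p = 0.027), with 6.03, 5.98 and 6.05 after CONCR siRNA against 5.57, 5.69 and 5.68 after control siRNA. No adaptor fell by limma, and 1 had an unadjusted p under 0.05 and was lower. That gene was RHOT1, or Miro1, which ties mitochondria to kinesin, at -0.16 (SE 0.06). KIFBP, which binds kinesin motor domains and keeps them off microtubules, was at 0.21 (SE 0.05, limma adjusted p = 0.11), with 8.43 to 8.45 after CONCR siRNA and 8.21 to 8.27 after control siRNA. The list's median was 0.04.

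Of 19 partners of mitotic kinesins 17 were tested and none was called by limma, with 4 at an unadjusted p under 0.05, all lower. NUSAP1, a spindle microtubule bundler, was at 7.95, 7.88 and 7.86 after CONCR siRNA against 8.13, 8.25 and 8.24 after control siRNA, a difference of -0.31 (SE 0.06, limma adjusted p = 0.056). Cyclin B1 (CCNB1) was at -0.19 and RACGAP1, which joins KIF23 in centralspindlin, at -0.15 (SE 0.05). PRC1, the partner of KIF14 and KIF4A, was at -0.08 (SE 0.06, groups overlapping). CENPE, a kinesin-7 of chromosome congression whose symbol lies outside the rule, was at -0.09 (SE 0.11), with 6.67, 6.49 and 6.63 after CONCR siRNA against 6.47, 6.71 and 6.87 after control siRNA. STARD9, likewise outside the rule, was at 0.08.

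Cytoplasmic dynein, the motor that walks the other way from most kinesins along microtubules, and dynactin held 3 calls against 2 among the kinesins. Of 25 tested dynein and dynactin genes 3 fell and none rose by limma, against 1.5% of all tested clusters called lower. An unadjusted p under 0.05 was found for 5 that were lower and 4 that were higher, against 7.43% and 5.31% of all tested clusters. DCTN4, a dynactin subunit, had 6.39, 6.22 and 6.33 after CONCR siRNA against 7.05, 7.26 and 7.12 after control siRNA, a fall of 0.83 on the log2 scale (SE 0.08, limma adjusted p = 0.0061). PAFAH1B1, or LIS1, fell by 0.39 (SE 0.06) and DYNC1LI2, a dynein light intermediate chain, fell by 0.35 (SE 0.05), with limma adjusted p of 0.028 and 0.017. DYNC1H1, the heavy chain, was at 0.24 (SE 0.06), NDEL1 at 0.22 (SE 0.06) and BICD1 at -0.31 (SE 0.06, limma adjusted p = 0.052), none past the threshold. The median of the list was 0.01. The difference in calls between dynein and kinesin genes was not tested.

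Tubulins, the track itself, had no call among 11 tested genes by limma, 2 with an unadjusted p under 0.05, and a median of -0.06. TUBG1, the gamma-tubulin of microtubule nucleation, was at -0.18 (SE 0.06) and TUBB4A at -0.16 (SE 0.06). Proliferation markers had the sign of the mitotic kinesins. None of the 11 tested was called by limma, and 3 had an unadjusted p under 0.05 and were lower. All 11 had a negative sign, against 47% of all tested clusters, and their median was -0.05. BUB1 rounded to 0 (SE 0.06) and MCM2 was at -0.01 (SE 0.06), so their signs are not firm. TOP2A was at -0.26 (SE 0.08), MKI67 at -0.17 (SE 0.07) and PCNA at -0.15 (SE 0.06). The deviation medians of these markers were -0.01, -0.05 and -0.05 after CONCR siRNA, against 0, 0.06 and 0.04 after control siRNA.

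Of 6 epithelial markers 5 were tested and none was called by limma, while CDH1, the epithelial cadherin, was at -0.22 and lower without overlap at an unadjusted p under 0.05. Among 3 tested neuron markers none was called by limma, and SNAP25, of synaptic vesicle fusion, was at -0.27 and lower without overlap at an unadjusted p under 0.05 (limma adjusted p = 0.063). PDGFRA (0.51), CD68 (0.50) and ESAM (0.41) were the single calls, all higher, among 6 fibroblast, 6 leukocyte and 6 endothelial markers, of which 3, 1 and 3 were tested. The median signal over the leukocyte markers was 3.81 to 3.94 after CONCR siRNA and 3.73 to 3.95 after control siRNA, and PTPRC, which defines leukocytes, lay at 1.97 to 2.00 on all 6 arrays. Fibroblast medians were 4.30 to 4.46 after CONCR siRNA and 4.29 to 4.45 after control siRNA, with DCN and LUM below 2. Endothelial medians were 3.49 to 3.57 after CONCR siRNA and 3.45 to 3.67 after control siRNA, with PECAM1 below the filter. The dim PTPRC, DCN, LUM and PECAM1 do not stand for their whole lists. CD68, PDGFRA, COL1A1, ESAM, VWF and CDH5 exceeded the filter on all 6 arrays and lay above the medians of their lists. The mean signal over the 6 arrays was 8.58 for CD68. Its median was 5.85 over the tested fibroblast markers and 4.55 over the tested endothelial markers.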

How the data were processed

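The authors deposited log2 signals made by RMA with Affymetrix Power Tools, per the submitters' processing notes. Tool versions and the probe sets' genome build are not given in the sources used here. RMA includes quantile normalization, which hides any shift in total RNA per cell. Arrays have no read depth, and their number limits the precision. Of 70523 probe sets, 67528 were transcript clusters, and 32540 passed the filter (log2 signal above 4 on at least 3 arrays). Symbols came from the platform annotation, with 21497 matched by Entrez identifier to RefSeq and 306 others updated from an older name. CONCR siRNA was compared to control siRNA by limma 3.58.1 under R 4.3.3 (lmFit, eBayes, two-sided, Benjamini-Hochberg over all tested clusters, threshold 0.05), with 6.91 degrees of freedom after moderation, after a test on simulated data. Promoters were searched with Python 3.11.15. Members, lists and motifs were chosen with earlier results of these data known. Every member is named. Of the other lists, called genes and up to 3 more with the smallest unadjusted p under 0.05 are named, while KIFAP3, PRC1, STARD9 and the marker genes were chosen after their values were seen. Alternatives were another filter, normalization, variance model, weighting, gene summary, adjustment or block, and leaving out each array.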

Additional observations from a re-analysis of the deposited data

How the results depend on the processing

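KIF3B was lower under all 15 alternatives, at -0.70 to -0.81, and called in 14. KIF14 was lower at -0.56 to -0.73 and called in 7. Same-numbered arrays of the groups did not deviate together (correlations of -0.27, -0.16 and -0.08). With 3 arrays per group, each centred on its group mean, this cannot decide whether the numbers pair the samples. With a replicate block 51 clusters and 0 kinesins were called by limma, 4 kinesins had an unadjusted p under 0.05, and the adjusted p was 0.16 for KIF14 and 0.094 for KIF3B. Kinesins called numbered 1 without a filter and 1 with median centring, where KIF14 had 0.096 and 0.059. The clusters called, 613 of 32540 as reported, numbered 238 of 67528 without a filter. They numbered 1102 of 12519 with a strict filter (log2 signal above 6) and 965 of 32540 with an intensity trend and robust estimation. With 1 cluster per gene they numbered 958 of 15497. In that fit 3 of 39 kinesins were called, and under the strict filter 3 of 23, with KIF21A as the third in each. Leaving out each array gave 129 to 411 clusters and 1 to 2 kinesins. The mitotic median then lay between -0.11 and -0.04, the cargo median between -0.03 and 0.01, and the median of the others between -0.01 and 0.05. Under the strict filter the cargo median was -0.11, over 9 genes, so its distance from the mitotic median of -0.07 turned round there. Uncalled kinesins near 0 turned sign 32 times in 16 genes, always with values between -0.05 and 0.07. The causes were not tested. Signals near the filter, as for KIF2B, KIF5A and KIF5C, limit what could be measured.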
